A study of Sus scrofa with 6 samples.

Results

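Chromatin accessibility was described at 10 genes that make, bind, break down and sense retinoic acid: the synthesizing enzymes ALDH1A2 and ALDH1A3, the degrading enzymes CYP26A1 and CYP26B1, the nuclear receptors RARA, RARB, RARG and RXRA, and the cellular binding proteins CRABP1 and CRABP2. The genes were chosen by name, out of 25859 annotated genes. Every called peak that touched a gene body or the 2 kb before its start was taken, which gave 544 of 1047483 peaks. Peaks of different libraries that touched each other were merged, and the 10 genes then held 118 of 294825 merged regions. The data came from 6 single-cell ATAC-seq libraries, an assay in which the Tn5 transposase cuts accessible DNA and the fragments of a droplet receive a common barcode. Somites, the segments that form trunk muscle and the vertebral column, were sampled at embryonic days 18 (E18) and 21 (E21). Myotomes, their muscle-forming part, were sampled at embryonic day 28 (E28). Tibetan pigs (ZZ) and crosses of Duroc with Tibetan pigs (DZ) were sampled at every stage, with 1 library each. Per the study's methods, each library pooled 5 embryos of 1 sow, so sow, breed and library cannot be told apart within a stage, and tissue and stage change together at E28. No treatment or transgene was used.

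Retinoic acid is made from retinol by successive oxidations, the last of which is carried out by enzymes such as ALDH1A2, the main source in somites, and it is removed by the CYP26 enzymes. It acts through heterodimers of a retinoic acid receptor (RAR) and a retinoid X receptor (RXR), which sit on paired half-sites of DNA known as retinoic acid response elements. In the embryonic trunk it opposes FGF signalling from the tail bud, keeps left and right somites in step and patterns the spinal cord, and the genes of its own breakdown and of RARB are textbook targets.

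The libraries kept 9286 to 11243 barcodes with 2000 to 30000 counts, and the counts of these barcodes (cut sites of Tn5 inside peaks) totalled 89816504 (E28 ZZ) to 133037579 (E18 ZZ). Any pair of libraries shared 113 to 157 barcode sequences, or 1.22% to 1.66% of the smaller library. Of 13 myogenic marker genes, 12 were annotated, and all 12 had peaks in every library, with summed levels of 473.9 to 604.9 CPM (the count of a feature scaled to a library total of 1000000 kept counts). Markers of other cell types were open as well: the neural progenitor list summed to 400.2 and 438.8 CPM at E18 and to 173.1 and 237.6 CPM at E28 (ZZ and DZ), and the epithelial list to 338.8 and 332.9 CPM at E18 and to 171.2 and 175.6 CPM at E28. The fibroblast and mesenchyme list went the other way, from 430.9 and 399.9 CPM at E18 to 583.0 and 539.8 CPM at E28. The tissues were therefore mixtures. Fewer cells of a type, less open chromatin per cell and shorter called peaks cannot be told apart in a sum over a library. Their part in the stage changes below was not tested.

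Peaks had been called in each library alone and covered 191.2 (ZZ) and 167.8 Mb (DZ) of the genome at E18, 147.1 and 157.8 Mb in the E21 somites, and 102.2 and 108.4 Mb in the E28 myotomes. Counts exist only inside called peaks, so a sum in CPM falls when less of a gene is called. Stage comparisons of regions, windows and promoters were therefore made on 2 scales, while the marker lists above are given in CPM alone. The first was CPM. The second was the level per covered base, in which the log of the called length entered the fit and each library was centred on its median feature. Without the centring, the level per covered base of the median gene window was 0.54 (log2) higher at E28 than at E18, that of the median region 0.43 higher and that of the median promoter 0.29 higher, so all values on that scale are relative to this shift. In the text below, pairs of values are given in the order ZZ and DZ.

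Of the 118 regions, 45 (38.1%) had a peak in all 6 libraries, beside 26.6% of all merged regions. A further 50 regions had a peak in 2 to 5 libraries and 23 in a single library. The number of regions with a peak fell from 97 and 84 at E18 to 76 and 82 at E21 and to 60 and 58 at E28. The share of the members with a peak thus went from 82.2% and 71.2% at E18 to 50.8% and 49.2% at E28, beside 72.3% and 65.1%, then 41.9% and 44.2%, of all merged regions. In 13 member regions (11%) a peak was called in both E18 libraries and nowhere else, and in 2 (1.69%) in both E28 libraries and nowhere else. The same patterns held for 12.7% and 2.23% of all merged regions. RARB had 45 regions, 14 of them with a peak in every library, and RXRA had 30, of which 14 were shared. ALDH1A2 had 12 regions and ALDH1A3 had 10, but only 2 and 1 of these were shared. The number of ALDH1A2 regions with a peak was 10 and 9 at E18, 7 and 7 at E21, then 3 and 5 at E28. RARA had 7 regions, CYP26B1 6, RARG 3, CYP26A1 and CRABP1 2 each, and CRABP2 1.

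Response elements of the classical form are direct repeats of a half-site, with 5, 2 or 1 bases between them (DR5, DR2, DR1). Both strands of the 118 regions were searched for pairs in which each member was the half-site AGGTCA, its variant AGTTCA, the variant GGGTCA or the variant GGTTCA, a motif set chosen after the values of the regions had been seen. The repeats in 5 of the genes are printed first, since each of these regions is described below, and capitals mark the half-sites. Sequences are those of the reference genome (Sscrofa11.1), written 5′ to 3′ on the strand given. CYP26A1 held 3 DR5 repeats: the first lies before the gene (chr14:104560294-104560370, minus strand), the second in an annotated exon (chr14:104561674-104561702, plus strand) and the third just before a downstream transcript start, in the exon of the longer transcript (chr14:104563524-104563552, minus strand). RARB held a DR5 directly after its first exon (chr13:12336533-12336699, plus strand), RARA a DR5 in an intron before its most downstream start (chr12:22063896-22063972, minus strand), RARG a DR5 that shares a half-site with a DR1 in an intron (chr5:18451385-18451461, minus strand), and CRABP2 a DR2 before the gene (chr4:93381306-93381379, minus strand).
CYP26A1 upstream repeat: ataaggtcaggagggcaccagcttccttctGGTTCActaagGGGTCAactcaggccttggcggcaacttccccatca
CYP26A1 internal repeat: ctgcagGGGTCAcaggcGGGTCAggccgg
CYP26A1 repeat before the second start: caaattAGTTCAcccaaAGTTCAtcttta
RARB first intron: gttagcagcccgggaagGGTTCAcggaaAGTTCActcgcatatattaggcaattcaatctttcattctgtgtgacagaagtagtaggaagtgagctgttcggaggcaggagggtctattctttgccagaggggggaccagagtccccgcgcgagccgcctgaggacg
RARA intron: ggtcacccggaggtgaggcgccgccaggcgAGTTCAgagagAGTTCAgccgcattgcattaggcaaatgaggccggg
RARG intron: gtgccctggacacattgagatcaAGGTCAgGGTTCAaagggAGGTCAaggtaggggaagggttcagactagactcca
CRABP2 upstream: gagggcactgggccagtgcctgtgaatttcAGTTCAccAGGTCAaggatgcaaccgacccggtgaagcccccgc

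The repeats before CYP26A1, at -1070 to -1054 from the gene start, lay inside a called peak in both E18 libraries and in none of the other 4. The other 2 CYP26A1 repeats, at 286 to 302 and at 2136 to 2152, lay inside a peak in all 6 libraries, as did the repeats printed for RARB (163 to 179), RARA, RARG and CRABP2 (-6862 to -6849). A DR2 at 169922 to 169935 of RARB lay inside a peak in the 2 E18 libraries, a DR1 in RXRA at 42072 to 42084 in all 6, and a DR5 in RXRA at 49390 to 49406 in 4 libraries, those of E18 and E21. No such repeat was found in the regions of ALDH1A2, ALDH1A3, CYP26B1 or CRABP1. A longer sequence holds a repeat more often, so its length has to be set beside each match. Windows of 300 bases at the starts of all 25859 genes held a DR5 in 0.058%, a DR2 in 0.058% and a DR1 in 0.143%, and windows of 300 bases at the centres of the 78533 regions with a peak in all libraries held them in 0.166%, 0.127% and 0.173%. The members were searched over their whole length, which had a median of 2955 bases in the 45 shared ones against 1366 in all shared regions. Over the whole length, 5 of these 45 regions held a DR5, 2 a DR2 and 2 a DR1, beside 0.847%, 0.754% and 1.25% of all shared regions. Among the 804 shared regions of at least 7000 bases, 5.72% held a DR5, 4.48% a DR2 and 8.08% a DR1, and of the 8 members of that length 4 held a DR5, 1 a DR2 and 2 a DR1. The motifs were chosen with these regions in view, so the counts are given as a description. A match describes the letters and says nothing of binding.

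At E28 the synthesizing enzymes, the degrading enzyme CYP26A1, the binding protein CRABP2 and RXRA had a lower level in CPM than at E18, and CYP26B1 had a higher one. Of the 10 gene windows, 6 passed the test on CPM between E28 and E18, of which 1 was higher (CYP26B1) and 5 lower (ALDH1A2, ALDH1A3, CYP26A1, RXRA and CRABP2). Of all 22612 windows tested, 43.2% passed in this comparison, 20.9% higher and 22.2% lower, and the median log2 change was -0.398 over the 10 members and -0.038 over all windows. Per covered base 3 of the 10 passed (35.7% of all windows, 18.3% higher and 17.4% lower): CYP26A1 and CRABP2 were again lower and RXRA was higher. CYP26A1 and CRABP2 were the members called lower on both of these scales, and RXRA was called in opposite directions. Without the centring, 6 of the 10 passed, 6 higher and 0 lower (68.8% of all windows, 66.7% higher and 2.17% lower): ALDH1A2 (0.49), CYP26B1 (0.64), RARA (0.62), RARB (0.46), RARG (0.60) and RXRA (0.82). There CYP26A1 (-0.24, adjusted p = 0.199) and CRABP2 (-0.08, adjusted p = 0.608) did not pass, so their calls per covered base are relative to the shift of the median window. On CPM 0 of the 10 passed without E18 DZ and 1 (CYP26A1) without E18 ZZ.

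**Figure D1:**
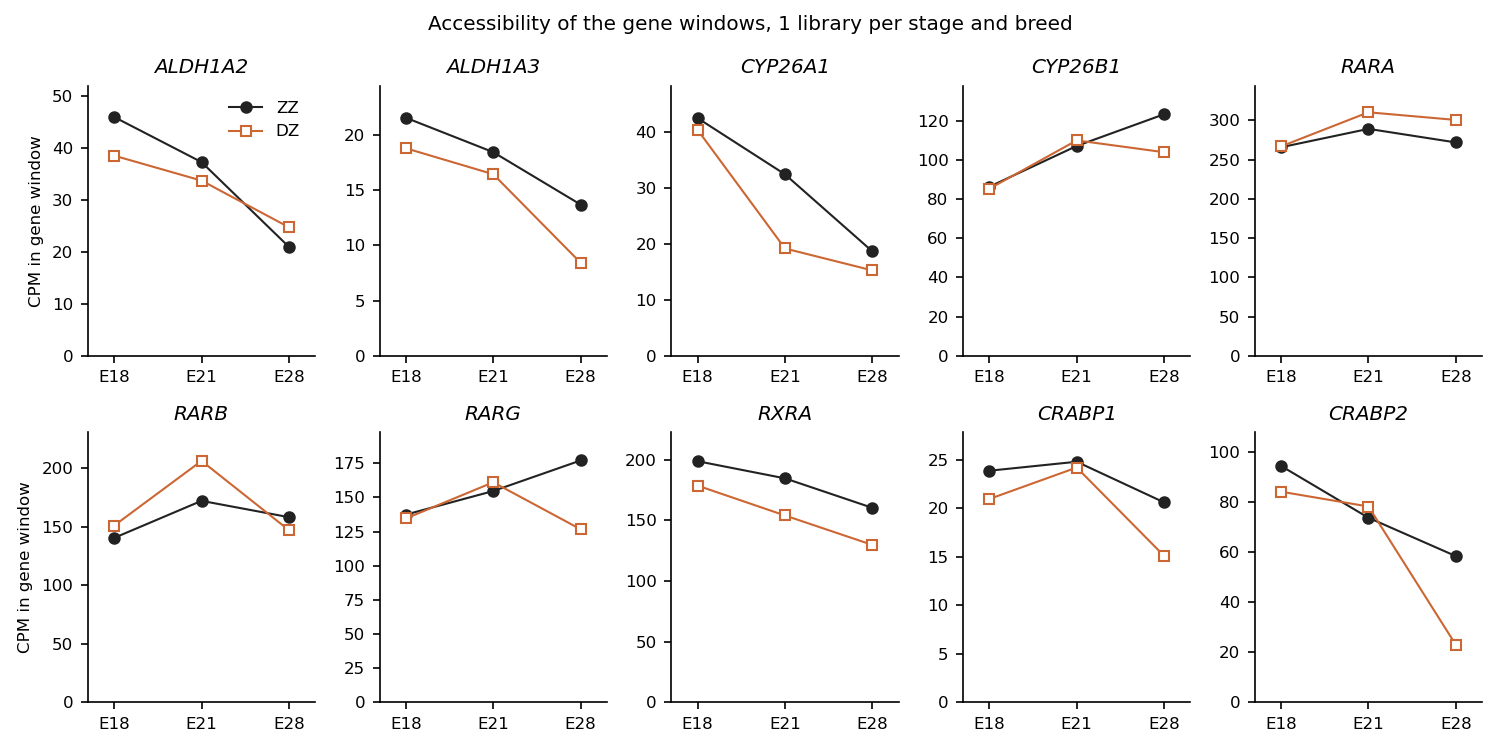
CPM in the windows of the 10 genes (gene body plus 2 kb upstream) at E18, E21 and E28, with 1 point per library (ZZ and DZ). The E28 values of ALDH1A2, ALDH1A3, CYP26A1, RXRA and CRABP2 lie below their E18 values in both breeds, and those of CYP26B1 lie above.

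Between the neighbouring stages none of the 10 windows passed on CPM. From E18 to E21 2.14% of all windows passed, 3 members had an unadjusted p under 0.05 (29.5% of all windows), the smallest adjusted p was 0.0846 (edgeR), and DESeq2 called 4 members (33.8% of all windows). From E21 to E28 6.2% of all windows passed, 7 members had an unadjusted p under 0.05 (28.7% of all windows), the smallest adjusted p was 0.0727 (edgeR), and DESeq2 called 6 (34% of all windows). Per covered base 2 members passed from E21 to E28 (9.73% of all windows): CYP26A1 was lower (log2 change -0.55, adjusted p = 0.0213) and RXRA was higher (0.38, adjusted p = 0.0142).

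Among single regions, 22 of the 45 shared regions passed between E28 and E18 on CPM, 7 higher and 15 lower (37.1% of all 78533 shared regions, 19% higher and 18.1% lower). Without E18 DZ 9 of the 22 passed, and these 9 passed without any 1 library. In 18 of the 22 the called length changed in the same direction as the level, and in 5 of the 22 the called length of the stages was within 1.5 times. Per covered base 18 of the 45 passed, 10 higher and 8 lower (36.9% of all regions, 18.8% higher and 18.1% lower). Without the centring 24 passed, 23 higher and 1 lower (52.2% of all regions, 45.8% higher and 6.39% lower). The calls on CPM and on the centred scale shared a direction in 13 regions, 6 higher and 7 lower, and were opposite in 1. The like share of all regions was not counted, so these numbers are given as a description. From E18 to E21 2 of the 45 passed on CPM (6.59% of all regions) and 7 per covered base (15.2%). From E21 to E28 6 passed on CPM, all lower (7.13%), and 7 per covered base, 4 higher and 3 lower (12.8%). The 6 were 3 start regions of RXRA, start regions of RARA and RARB, and an intragenic RARB region (log2 change -1.57, adjusted p = 0.0441). None of the 6 passed without E21 ZZ or without E21 DZ (adjusted p 0.190 to 0.269), and the 2 calls from E18 to E21 each passed without E28 ZZ or E28 DZ and in none of the other 4 such fits.

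**Figure D2:**
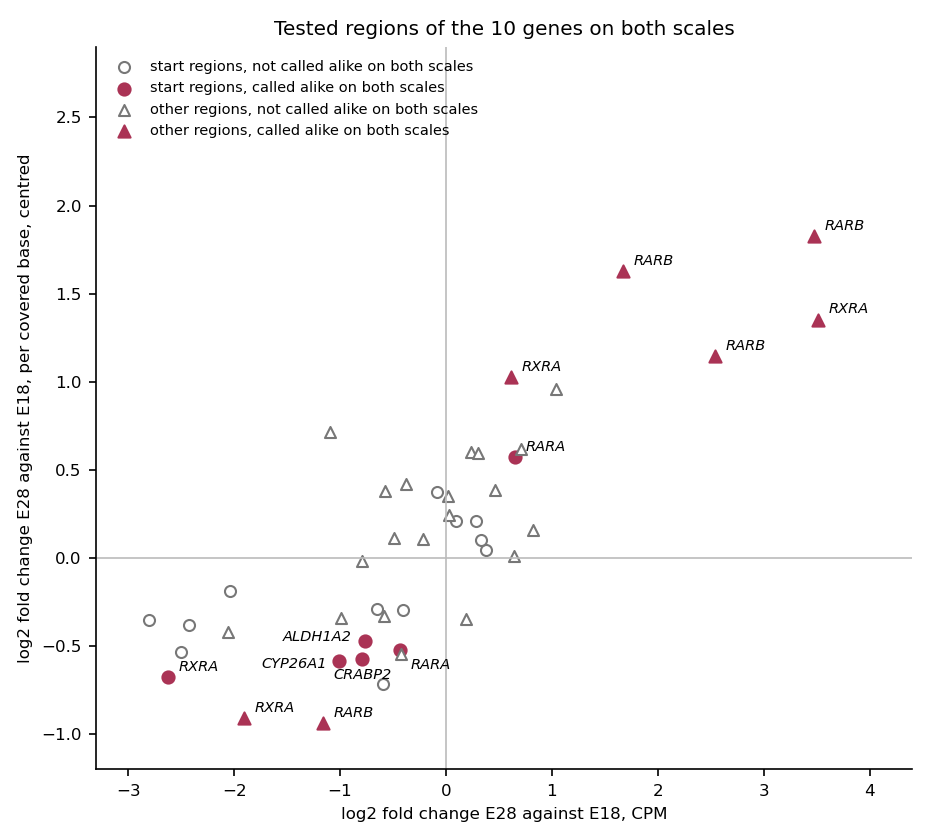
Log2 change from E18 to E28 of each shared region on CPM (x axis) and per covered base after centring (y axis), circles for regions over a transcript start and triangles for the others. Filled symbols mark the 13 regions called in the same direction on both scales, and many regions that are low on CPM lie near 0 per covered base.

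ALDH1A2 (chr1:113932722-114037059, plus strand) makes retinoic acid in the paraxial mesoderm. Its window held 46.0 and 38.6 CPM at E18, 37.3 and 33.8 at E21, then 21.0 and 24.8 at E28. All 4 earlier libraries were above both E28 libraries (log2 change -0.92, SE 0.158, adjusted p = 0.0112, edgeR). The called length fell in parallel, from 10200 and 7437 bases at E18 to 2780 and 3768 at E28, and per covered base the window changed by -0.05 (adjusted p = 0.798). The region over its start, -573 to 2940 from the start, behaved differently. It held 28.1 and 25.5 CPM at E18, 23.7 and 17.5 at E21, then 16.8 and 15.6 at E28, and it was lower at E28 on CPM (-0.77, SE 0.143, adjusted p = 0.0111) and per covered base (-0.48, SE 0.146, adjusted p = 0.0229). The stages did not overlap in this region.

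ALDH1A3 (chr1:139451080-139491514, plus strand) is a related enzyme of the eye, nose and other sites. Its window held 21.5 and 18.8 CPM at E18, 18.4 and 16.4 at E21, then 13.7 and 8.42 at E28, a log2 change of -0.93 from E18 to E28 (SE 0.170, adjusted p = 0.0127) and of -0.29 per covered base (adjusted p = 0.155). The region over its start, -618 to 1550, also holds the start of the gene LOC106509041, so its counts cannot be given to either gene alone. That region held 15.8 and 14.9 CPM at E18, 14.5 and 12.2 at E21, then 12.9 and 8.42 at E28 (log2 change -0.60, SE 0.191, adjusted p = 0.054). Per covered base it was lower by the test (-0.72, SE 0.175, adjusted p = 0.0070). At E28 this was the single ALDH1A3 region with a peak in DZ and 1 of 2 in ZZ.

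CYP26A1 (chr14:104561394-104567099, plus strand) encodes the enzyme that clears retinoic acid in the tail bud and the early trunk. Its window held 42.6 and 40.4 CPM at E18, 32.5 and 19.2 at E21, then 18.7 and 15.3 at E28, so the stages did not overlap. These values depend on the window's edge as well. A separate peak before the gene entered the window in E21 ZZ (6.62 CPM). In E21 DZ (6.48 CPM) and at E28 (5.17 and 3.32 CPM) it ended over 2 kb before the start and was left out. At E18 a single peak brought that stretch into the window. The log2 change from E18 to E28 was -1.33 on CPM (SE 0.181, adjusted p = 0.00712) and -0.78 per covered base (SE 0.127, adjusted p = 0.000861). The region over both of its transcript starts held 41.8 and 40.4 CPM at E18, 32.5 and 25.7 at E21, then 23.9 and 18.6 at E28. The share of cells with a cut in it was 20.8% and 20.9% at E18, 16.3% and 12.4% at E21, then 10.1% and 9.01% at E28. This region passed between E28 and E18 (-1.01, SE 0.110, adjusted p = 0.0034), also per covered base (-0.59, SE 0.132, adjusted p = 0.0045) and without any 1 of the 6 libraries. It passed between E21 and E18 as well (-0.58, SE 0.109, adjusted p = 0.0407), but not when any 1 of the E18 or E21 libraries was left out (adjusted p up to 0.343).

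The shape of the CYP26A1 peak differed between stages. At E18 a single peak of 7585 bases in ZZ and 7592 in DZ ran from upstream of the gene to 4556 bases after its start. At E21 and E28 it was called as an upstream piece and a downstream piece. The downstream piece began at -367 in E21 ZZ, at 153 in E21 DZ, and at 242 and 245 at E28. The stretch between the pieces, which holds the repeat before the gene printed above, was outside called peaks there. The upstream piece held 6.62 and 6.48 CPM at E21, then 5.17 and 3.32 at E28.

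**Figure D3:**
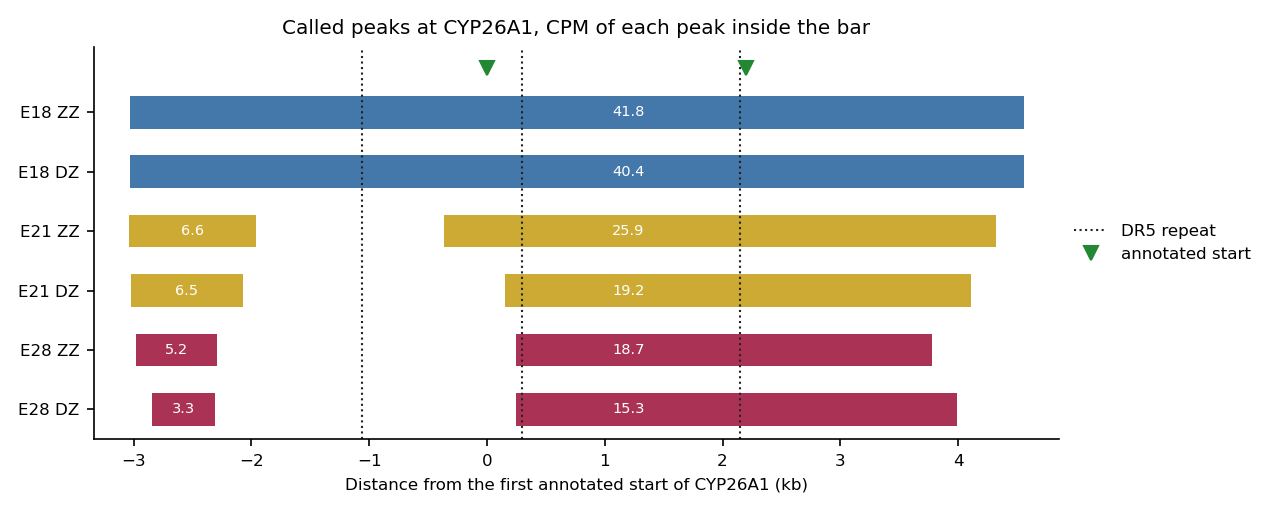
Called peaks at CYP26A1 in each of the 6 libraries against the distance from the gene start, each bar labelled with its CPM, with dotted lines at the 3 DR5 repeats and triangles at the annotated starts. The single E18 peak of 41.8 and 40.4 CPM is called as 2 pieces at E21 and E28, and the repeat before the gene then lies outside both.

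CYP26B1 (chr3:70573551-70593416, plus strand, annotated as LOC100521659 and matched by its product name) degrades retinoic acid in limb, skeletal and other mesenchyme. Its window held 86.3 and 85.3 CPM at E18, 107.0 and 109.9 at E21, then 123.2 and 103.9 at E28. Both E18 libraries were below the other 4, and E21 and E28 overlapped. The log2 change from E18 to E28 was 0.37 (SE 0.094, adjusted p = 0.0307), and 0.10 per covered base (adjusted p = 0.442). The call on CPM held in 1 of the 6 fits that left out a library, that without E28 DZ, and the change ranged from 0.23 to 0.44 over these fits (adjusted p up to 0.154). The markers of fibroblasts and mesenchyme were also higher at E28, as given above, and their part in this change was not tested. The region over its start, -2311 to 6659, held 71.0 and 69.1 CPM at E18, 86.1 and 87.4 at E21, then 101.2 and 87.7 at E28 (log2 change 0.38, SE 0.086, adjusted p = 0.0191; 0.05 per covered base, adjusted p = 0.80). A region inside the gene, 8849 to 12965, passed per covered base (0.60, adjusted p = 0.012) but not on CPM (0.24, adjusted p = 0.38).

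CRABP2 (chr4:93388198-93393861, plus strand) carries retinoic acid to its receptors. Its window held 94.3 and 84.0 CPM at E18, 73.6 and 78.1 at E21, then 58.3 and 23.0 at E28, a log2 change of -1.26 (SE 0.340, adjusted p = 0.035) and of -0.62 per covered base (SE 0.122, adjusted p = 0.0025). The value of E28 DZ was the lowest by far, and there the peak over the start was called in pieces: a piece of 12.1 CPM and 2450 bases at -4774 to -2325 fell outside the window. The change of the window was -0.72 without E28 DZ and -1.97 without E28 ZZ, and it did not pass without either E18 library (adjusted p up to 0.161). Over the whole merged region, -9346 to 1954, the libraries held 94.3 and 85.8 CPM at E18, 73.6 and 78.1 at E21, then 69.4 and 40.4 at E28 (log2 change -0.79, SE 0.192, adjusted p = 0.0241; per covered base -0.57, SE 0.150, adjusted p = 0.0104). CRABP1 (chr7:47602316-47608865, minus strand), which is thought to hold retinoic acid in the cytoplasm, held 23.9 and 21.0 CPM at E18, 24.8 and 24.2 at E21, then 20.6 and 15.1 at E28. Its window missed the threshold (-0.37, SE 0.129, adjusted p = 0.067), and the region over its start, -975 to 3844, passed on CPM (20.7 and 20.1, 22.7 and 19.1, 16.3 and 10.9 CPM; -0.65, SE 0.162, adjusted p = 0.0255) but not per covered base (-0.29, adjusted p = 0.14).

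RARA (chr12:22047449-22085759, minus strand), the broadly expressed receptor, had one of the highest levels per covered base, and its window changed little in sum: 265.7 and 266.8 CPM at E18, 289.1 and 310.2 at E21, then 271.8 and 300.5 at E28 (log2 change 0.07, adjusted p = 0.51). Within the gene the start regions moved in opposite directions. The region over the first start, -5990 to 9777, held 109.8 and 110.4 CPM at E18, 134.003 and 155.0 at E21, then 167.9 and 190.0 at E28, and all stages were separate (log2 change 0.65, SE 0.0948, adjusted p = 0.0060; per covered base 0.57, SE 0.128, adjusted p = 0.0043). The region over the most downstream start, 20991 to 33066, which holds the DR5 printed above, held 114.8 and 117.4 CPM at E18, 124.4 and 123.9 at E21, then 86.6 and 91.3 at E28. It was lower at E28 than at E18 (-0.43, SE 0.0763, adjusted p = 0.0098; per covered base -0.53, SE 0.122, adjusted p = 0.0054) and than at E21 (-0.46, SE 0.0763, adjusted p = 0.0325), the latter not without either E21 library. Both regions passed on CPM between E28 and E18 without any 1 library. A region between them, 15376 to 18423, fell on CPM from 19.9 and 21.4 at E18 through 13.3 and 13.7 at E21 to 11.4 and 10.1 at E28 (-0.99, SE 0.162, adjusted p = 0.0079), and its change per covered base was -0.34 (adjusted p = 0.11).

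RARB (chr13:12336387-12507688, plus strand) is the receptor whose own promoter carries the best-known response element. Its window was 140.4 and 150.9 CPM at E18, 172.0 and 206.1 at E21, then 158.1 and 147.0 at E28 (log2 change from E18 to E28 0.03, adjusted p = 0.80). The sum hides regions that changed in both directions. The region over its start, -4002 to 4369, held 58.9 and 58.5 CPM at E18, 72.3 and 78.8 at E21, then 47.2 and 44.4 at E28. It was highest at E21 and lowest at E28, with a log2 change of -0.41 from E18 to E28 (SE 0.0944, adjusted p = 0.0213; per covered base -0.29, adjusted p = 0.078) and of -0.70 from E21 to E28 (SE 0.0947, adjusted p = 0.0257, lost without either E21 library). The next region, 5037 to 6592, fell on both scales: 11.4 and 14.6 CPM at E18, 8.39 and 7.13 at E21, then 6.26 and 5.72 at E28 (-1.16, SE 0.229, adjusted p = 0.0133; per covered base -0.94, SE 0.184, adjusted p = 0.0020).

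Deeper inside RARB, small intronic regions rose. A region at 65222 to 66051 (chr13:12401609-12402438) held 0.812 and 0.489 CPM at E18, 2.88 and 3.02 at E21, then 6.44 and 8.41 at E28. The stages did not overlap, and the share of cells with a cut was 0.569% and 0.417%, then 1.82% and 1.73%, then 3.05% and 4.26%. Its log2 change from E18 to E28 was 3.47 (SE 0.416, adjusted p = 0.0040; per covered base 1.83, SE 0.217, adjusted p = 9.37e-05), and from E18 to E21 it was 2.11 (SE 0.395, adjusted p = 0.0397; per covered base 0.95, adjusted p = 0.0131), a call on CPM that was lost without any 1 of the E18 or E21 libraries (adjusted p up to 0.288). A region at 75134 to 76081 held 0.970 and 0.866 CPM at E18, 2.38 and 1.80 at E21, then 5.02 and 5.92 at E28 (2.54, SE 0.35, adjusted p = 0.0053; per covered base 1.15, SE 0.214, adjusted p = 0.0015). Both calls between E28 and E18 held without any 1 library. Together with the region at 5037, these are the RARB regions away from the start that the naming rule gives.

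The following 3 RARB regions were picked after their values were seen. At 120347 to 121951 the level was 2.82 and 1.89 CPM at E18, 6.15 and 6.83 at E21, then 10.6 and 5.33 at E28 (1.67, SE 0.345, adjusted p = 0.0149; per covered base 1.63, SE 0.247, adjusted p = 0.00040). At 114311 to 115312 a peak was called in the E28 libraries alone, with 6.07 and 6.61 CPM. Near the end of the gene, at 166477 to 170153, the level was 6.73 and 7.33 CPM at E18, 5.04 and 6.11 at E21, then 3.12 and 3.70 at E28. This last region was the one called in opposite directions, lower on CPM (-1.10, SE 0.249, adjusted p = 0.0198) and higher per covered base (0.71, SE 0.209, adjusted p = 0.0181).

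**Figure D4:**
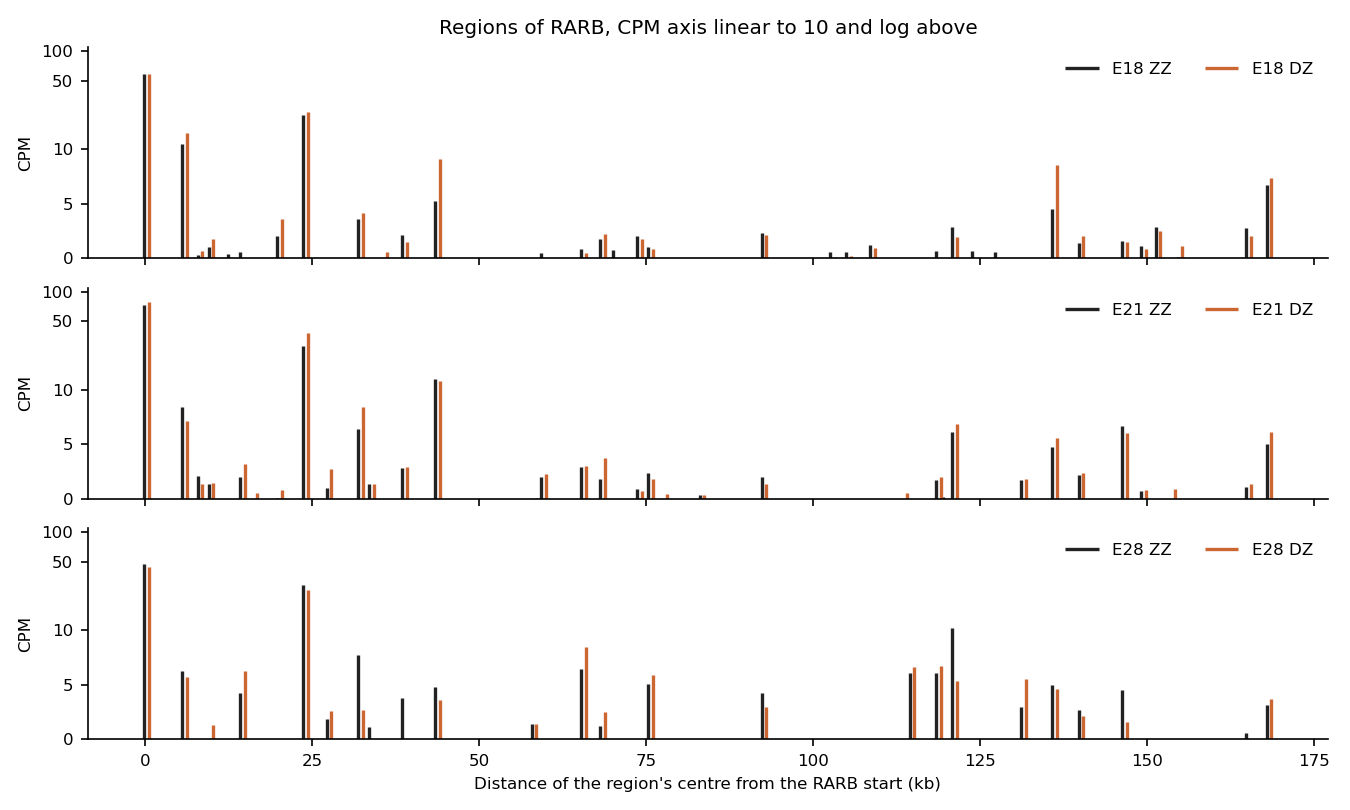
CPM of every RARB region with a peak against its distance from the gene start, in 1 panel per stage, with black for ZZ and orange for DZ and an axis that is linear up to 10 CPM and logarithmic above. The start region dominates at every stage (44.4 to 78.8 CPM), and the regions near 65 and 75 kb rise from under 1 CPM at E18 to between 5.02 and 8.41 CPM at E28.

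RARG (chr5:18436267-18458625, minus strand, annotated as a non-coding gene in this release) is the receptor of cartilage and skin. Its window held 137.4 and 134.6 CPM at E18, 154.6 and 161.0 at E21, then 177.0 and 126.7 at E28, and E28 spanned the whole range of the other stages (log2 change 0.11, adjusted p = 0.54). The region over its start, -3399 to 2664, which also holds the start of LOC102161895, had 34.3 and 33.4 CPM at E18, 40.8 and 39.2 at E21, then 50.5 and 38.1 at E28 (0.33, adjusted p = 0.067). Most of its counts lay in the region over its downstream starts, 6502 to 19359, which holds the DR5 (96.5 and 93.8, 109.6 and 119.1, 124.5 and 87.0 CPM), which did not pass either. A small region at the end of the gene, 21793 to 23704, fell on CPM: 6.62 and 7.38 at E18, 4.16 and 2.73 at E21, then 1.92 and 1.59 at E28 (-2.06, SE 0.309, adjusted p = 0.0064; per covered base -0.42, adjusted p = 0.135).

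RXRA (chr1:273698842-273797622, plus strand), the obligate partner of the RARs, was lower at E28 as a window and mixed within. The window held 198.7 and 178.6 CPM at E18, 184.6 and 154.0 at E21, then 160.3 and 129.8 at E28 (log2 change -0.42, SE 0.0751, adjusted p = 0.0121). Its called length fell further, from 58139 and 50555 bases at E18 to 25069 and 20506 at E28, and per covered base the window was higher (0.28, SE 0.0783, adjusted p = 0.0152). The region over the first start, -810 to 2370, held 7.46 and 6.93 CPM at E18, 7.70 and 5.48 at E21, then only 1.51 and 1.14 at E28 (-2.50, SE 0.268, adjusted p = 0.0033; per covered base -0.54, adjusted p = 0.0545). Start regions at 9484 to 13052 and at 21687 to 24641 fell likewise on CPM: the first from 11.2 and 9.66 at E18 to 2.78 and 1.44 at E28 (-2.43, adjusted p = 0.0037; per covered base -0.38, adjusted p = 0.15), the second from 9.72 and 11.5 to 2.09 and 1.5 (-2.63, SE 0.274, adjusted p = 0.0032; per covered base -0.68, SE 0.195, adjusted p = 0.0168). These 3 start regions passed on CPM without any 1 library between E28 and E18. They also passed between E28 and E21, but not without either E21 library, as given above. An intragenic region at 32887 to 34745 was lower on both scales, with 6.86 and 7.92 CPM at E18 against 2.23 and 1.87 at E28 (-1.91, SE 0.299, adjusted p = 0.0071; per covered base -0.91, SE 0.204, adjusted p = 0.0044).

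RXRA has more annotated starts than the other members, and its start regions did not change as one. The region at 3092 to 8516, over 7 starts, held 25.1 and 24.6 CPM at E18, 26.2 and 26.7 at E21, then 31.5 and 31.0 at E28, so every E28 value was above every earlier one, but the change missed the threshold (0.28, adjusted p = 0.0926; per covered base 0.21, adjusted p = 0.276). At 35511 to 43924, where the DR1 lies, the level was 31.1 and 26.6 CPM at E18, 33.3 and 27.9 at E21, then 30.3 and 25.98 at E28 (-0.08, adjusted p = 0.568). At 48947 to 55788, over 5 starts and the DR5, it was 19.3 and 17.8, 12.8 and 12.0, and 7.86 and 2.46 CPM, a fall on CPM (-2.04, adjusted p = 0.0140) with a change per covered base of -0.19 (adjusted p = 0.396). The region at 68601 to 70706 held 4.67 and 4.42 CPM at E18 and did not pass. Its E28 DZ peak was called over 2 bases and held 0.0101 CPM. Without a peak in all libraries, and so without a test, the start region at 61587 to 62690 held 0.406 and 0 CPM at E18, 1.95 and 1.28 at E21, then 8.01 and 6.56 at E28. The other start regions of RXRA and the start region of RARA at 12258 to 12622 held at most 3.91 CPM in any library.

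In the last part of RXRA regions rose on both scales. The region at 82422 to 85361 (chr1:273781264-273784203) held 1.99 and 0.425 CPM at E18, 6.09 and 9.61 at E21, then 15.7 and 10.6 at E28, with a cut in 1.34% and 0.357%, 3.59% and 5.04%, and 6.75% and 5.32% of the cells. Its called length rose from 1239 and 353 bases to 2910 and 2188, and its log2 change from E18 to E28 was 3.51 (SE 0.697, adjusted p = 0.0134; per covered base 1.35, SE 0.227, adjusted p = 0.000754). The region at 92643 to 96357, which covers no start, held 19.9 and 18.6 CPM at E18, 19.6 and 23.8 at E21, then 31.6 and 29.5 at E28 (0.62, SE 0.154, adjusted p = 0.0265; per covered base 1.02, SE 0.150, adjusted p = 0.00033). The first of these and the RARB region at 65222 to 66051 had the largest rises on CPM among the shared regions of the 10 genes. The central 300 bases of both are printed here (RXRA: chr1:273782584-273782883, RARB: chr13:12401874-12402173, both plus strand), and capitals mark CAGCTG, an E-box of the kind bound by myogenic factors.
RXRA intragenic region: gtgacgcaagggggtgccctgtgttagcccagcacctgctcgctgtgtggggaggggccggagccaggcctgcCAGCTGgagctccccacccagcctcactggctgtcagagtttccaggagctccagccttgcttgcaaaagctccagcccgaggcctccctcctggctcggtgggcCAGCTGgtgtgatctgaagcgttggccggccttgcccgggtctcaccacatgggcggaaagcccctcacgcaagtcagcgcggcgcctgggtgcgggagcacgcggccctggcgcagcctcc
RARB intragenic region: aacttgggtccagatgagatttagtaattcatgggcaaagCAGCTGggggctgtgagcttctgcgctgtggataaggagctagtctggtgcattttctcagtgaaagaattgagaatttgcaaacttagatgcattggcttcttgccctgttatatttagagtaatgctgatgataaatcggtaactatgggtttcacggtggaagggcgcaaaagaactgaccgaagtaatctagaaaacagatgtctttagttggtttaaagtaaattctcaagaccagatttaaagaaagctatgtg
The RXRA stretch held 2 such E-boxes and the RARB stretch 1. The regions were picked for their rise, and no rule set in advance picked the motif. Other regions of RXRA, RARA, RARB and CYP26B1 also held 2 copies in their central 300 bases. G and C made up 68.6% of the RXRA region and 42.9% of the RARB region, and the shares below were not matched for this. Among the centres of all shared regions 24.0% held at least 1 and 3.87% at least 2, so a single match is common.

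The promoter of a gene, taken as all peaks that touch the 2 kb before the gene start through the start itself, was compared with its other peaks. Only the first annotated start of a gene counted, so a peak at a later start alone fell among the other peaks. On CPM 4 of the 10 promoters passed between E28 and E18, each lower (29.7% of all promoters): ALDH1A2 (log2 change -0.79, SE 0.146, adjusted p = 0.0297), RARB (-0.76, SE 0.102, adjusted p = 0.0219), CRABP1 (-0.75, SE 0.157, adjusted p = 0.0353) and RXRA (adjusted p = 0.00926). The RXRA promoter held 7.55 and 7.06 CPM at E18 and 8.42 and 6.39 at E21 and was listed at 0 at E28, where no peak touched it, so no fold is given. That covers the first RXRA start alone. Of its later start regions, described above, some were lower at E28 and others had their highest values there without a call. Of the 6 fits that left out a library, the call held in 2 for ALDH1A2, in 1 for CRABP1 (without E28 ZZ) and in 4 each for RARB and RXRA, and all 4 calls were lost without E18 DZ or E18 ZZ. CYP26A1 was listed at 0 in E21 DZ and at E28 because its peak began after the gene start, as described above. Its second start lay inside a called peak in every library. CRABP2 (-1.37, adjusted p = 0.0554) and ALDH1A3 (-0.69, adjusted p = 0.0542) lay just past the threshold.

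Per covered base 4 of 8 promoters passed between E28 and E18 (31.7% of all promoters): ALDH1A2 (-0.65, adjusted p = 0.0266), ALDH1A3 (-0.69, adjusted p = 0.0106) and CRABP2 (-0.47, adjusted p = 0.0154) were lower, and RARA was higher (0.68, adjusted p = 0.00615). The RARA promoter peak covered 15747 and 7515 bases at E18 but 6110 and 6127 at E28, and on CPM it changed by 0.14 (adjusted p = 0.55, edgeR). The promoters of RARB (0.05, adjusted p = 0.777) and CRABP1 (-0.26, adjusted p = 0.133), called on CPM, did not pass there. From E21 to E28 2 promoters passed on CPM (2.52% of all), RARB (-1.06, adjusted p = 0.0225) and RXRA (adjusted p = 0.0142). Each of these calls held in 2 of the 6 fits that left out a library, those without an E28 library, and per covered base 0 of 8 promoters passed (4.07% of all promoters), with 3 at an unadjusted p under 0.05 (edgeR), as had 3364 of all 15417 promoters tested on that scale. Between E28 and E18 the fit per covered base without centring called 3 of 8, all higher (50.5% of all promoters). From E18 to E21 none passed (0% of all promoters), while 3 had an unadjusted p under 0.05 (edgeR, 21.5% of all promoters) and DESeq2 called 3 (25.2%).

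The ratio of promoter to other counts within a gene, with 1 CPM added to both parts, was tested with limma in 9 genes and passed between E28 and E18 in 3 (36.9% of all genes): ALDH1A3, RARB and RXRA. In RXRA the promoter was listed at 0 at E28, where the peak of that region began 1422 and 1464 bases after the gene start, so no size is given. In ALDH1A3 the other peaks held 0.779 and 0 CPM at E28, below the 1 CPM added, and the call held in 0 of the 6 fits that left out a library (adjusted p 0.0543 to 0.156). In RARB the ratio fell by 0.96 on the log2 scale (SE 0.143, adjusted p = 0.0150), a call that held in 1 of the 6 fits. At E28 the RARB start region was called in pieces, and those at 2890 to 4289 in ZZ (4.398 CPM) and at 2780 to 4369 in DZ (6.45 CPM) count among the other peaks. From E21 to E28 the ratio passed in RARB (-0.97, adjusted p = 0.0441), in 0 of the 6 fits, and in RXRA, where 5.78% of all genes passed. From E18 to E21 none of the 9 passed and none had an unadjusted p under 0.05 (6.3% of all genes passed, and 29.7% had such a p).

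No difference between the breeds passed at any of these genes. On CPM 0 of 45 regions passed (0% of all regions), with 2 at an unadjusted p under 0.05 (edgeR, 4.94% of all regions), and 0 of the 10 promoters (0% of all promoters), with 0 at an unadjusted p under 0.05 (2.49% of all promoters). DESeq2 called 0 of either (0.202% of all regions and 0.498% of all promoters). Of the 10 windows none passed (0.00442% of all windows), with 1 at an unadjusted p under 0.05 (5.24% of all windows). That was RXRA, whose DZ value was below the ZZ value at all 3 stages (log2 change -0.21, SE 0.0613, adjusted p = 0.815). DESeq2 called it (-0.21, adjusted p = 0.0041, with 2.32% of all windows called), but its called length was also shorter in DZ at every stage (50555 against 58139 bases at E18), and per covered base the difference was 0.01. The promoter ratio passed in none of the 9 genes (0.00683% of all genes), and RARA alone had an unadjusted p under 0.05 (-0.64, adjusted p = 0.801, limma), as had 2.83% of all genes. At E18 its peak over the start was a single peak of 15747 bases in ZZ and a pair of 7515 and 7430 bases in DZ, which moved counts from the promoter to the other part.

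Levels can be compared between genes only per length. Per covered kb and as mean ± SD over the 6 libraries, RARA (9.72 ± 2.02 CPM), RARG (9.21 ± 2.13), CYP26B1 (8.36 ± 1.86) and CRABP2 (8.10 ± 0.73) were the highest. ALDH1A2 (5.66 ± 1.22), RARB (5.43 ± 0.923), ALDH1A3 (5.18 ± 0.884), CYP26A1 (5.09 ± 0.549), RXRA (4.53 ± 1.42) and CRABP1 (4.396 ± 0.588) followed. Neighbours in this order differed by less than their SD, with the exception of the gap between CRABP2 and ALDH1A2, and CYP26A1 and RXRA differed by about the SD of CYP26A1. The SD takes in the change of the level with stage, so it does not measure whether genes differ within a library. RXRA held 3.42 and 3.53 at E18 and 3.85 and 3.68 at E21, below CRABP1 (3.82 and 3.92, then 4.47 and 4.29). At E28 RXRA held 6.395 and 6.33, above CRABP1 (5.47 and 4.41).

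Cells were grouped into classes by the accessibility of regions on 10 chromosomes that hold none of the 10 genes, and the counts of a class were compared with those of all other cells of the same library (edgeR, library as block). Only windows on the 8 chromosomes that hold the 10 genes were tested. For the classes, all windows means these, 11812 to 11873 by class. The fibroblast and mesenchyme-like class held 45678 cells (77.7%) and was itself a mixture. At a finer resolution 23.3% of its cells fell in a sclerotome and cartilage-like cluster, 22.7% in a neural progenitor-like one, 20.7% in a fibroblast and mesenchyme-like one, 5.01% in an epithelial-like one and most of the rest in 2 unnamed clusters, so the name covers cells that are not mesenchyme. In this class 3 of the 10 windows passed, all higher (13.3% of all windows): CYP26B1 (110.9 ± 20.04 against 79.7 ± 5.05 CPM, SD, n = 6; log2 change 0.47, SE 0.114, adjusted p = 0.0376), CRABP2 (73.2 ± 26.3 against 53.4 ± 21.1; 0.47, SE 0.0639, adjusted p = 0.0095) and CYP26A1 (29.1 ± 11.9 against 25.2 ± 11.7; 0.25, SE 0.0555, adjusted p = 0.0306). Each was higher in 6 of 6 libraries. The difference at CYP26B1 was small at E18 (86.7 against 83.9 CPM in ZZ and 85.6 against 83.6 in DZ) and larger at E21 (120.5 against 79.1 and 121.6 against 75.5) and at E28 (134.2 against 83.95 and 116.9 against 72.03). The mix of the class differed between the stages as well. The sclerotome and cartilage-like cluster of the finer resolution held 12.35% and 11.15% of all cells at E18, 20.31% and 22.98% at E21, then 24.43% and 19.07% at E28. The neural progenitor-like cluster held 21.35% and 32.14%, 16.87% and 15.34%, then 9.1% and 9.44%. The part of these shares in the stage differences at CYP26B1 was not tested. The CRABP2 call held without any 1 library, and those of CYP26B1 and CYP26A1 were lost without any 1 of the E21 or E28 libraries (adjusted p 0.0506 to 0.109). At the finer resolution a sclerotome and cartilage-like cluster had more counts at CYP26B1 than the other cells (147.4 against 91.2 CPM, 0.67, adjusted p = 0.0121). The fibroblast and mesenchyme-like cells of that resolution had 91.5 CPM at CYP26B1 against 104.7 in the other cells (-0.15, adjusted p = 0.202, higher in 1 of 6 libraries) and did not pass at CYP26A1 (29.9 against 27.8 CPM, 0.12, adjusted p = 0.0908). CRABP2 passed there as well (98.6 against 62.2 CPM, 0.63, adjusted p = 0.0108, higher in 5 of 6).

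The myogenic-like class (6118 cells, 10.4%) differed at 2 windows, both lower in 6 of 6 libraries (18.9% of all windows): RARG (97.1 ± 16.5 against 157.0 ± 21.3 CPM; -0.65, SE 0.111, adjusted p = 0.0082) and ALDH1A3 (11.7 ± 3.63 against 16.8 ± 4.53; -0.48, SE 0.0902, adjusted p = 0.0124). The fit took the stages together. RARA and CYP26B1 did not pass, but their differences changed with stage. RARA held 239.8 and 236.8 CPM against 267.7 and 268.8 at E18. At E28 it held 342.9 and 399.6 against 258.5 and 271.3. CYP26B1 held 88.4 and 90.9 CPM against 86.1 and 84.9 at E18, and 83.3 and 70.3 against 130.7 and 113.7 at E28. These genes were picked after their values were seen, and differences by stage were not tested. Within genes, counts by region were summed over all libraries, so the mix of stages, which differed between the classes, enters these values. The RXRA region at 82422 to 85361 had 14.3 CPM in myogenic-like cells and 5.73 in the others and was higher in 5 of 6 libraries. The RARB region at 120347 to 121951 had 9.17 against 4.75 CPM and was higher in 6 of 6. These values by region were not tested. No rule set in advance picked these 2 regions, and other regions of these genes are not given for this class. The share of myogenic-like cells was 6.22% and 5.82% at E18, 9.29% and 9.46% at E21, then 13.01% and 19.7% at E28, and its part in the rise of these regions was not tested.

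In the neuron-like class (3162 cells) 4 windows passed, all lower (25.4% of all windows): CYP26B1 (62.0 against 104.8 CPM, -0.70, adjusted p = 0.00116), CRABP2 (48.2 against 69.9 CPM, -0.52, adjusted p = 0.000861), RARB (-0.28, adjusted p = 0.021) and RARG (-0.29, adjusted p = 0.0226). This class made up 16.95% and 10.45% of the cells at E21 and 0.67% to 2.17% elsewhere. In the neural crest-like class (1775 cells) 6 windows passed, 4 higher and 2 lower (19.7% of all windows). ALDH1A3 had the largest difference (36.0 ± 14.1 against 15.5 ± 4.36 CPM, 1.26, SE 0.177, adjusted p = 0.000861, higher in 6 of 6 libraries), followed by RARB (198.8 against 161.2 CPM, 0.39, adjusted p = 0.00146, 6 of 6), RARG (0.32, adjusted p = 0.0142, 5 of 6) and RARA (0.27, adjusted p = 0.0494, 4 of 6). RARA held 261.2 and 266.4 CPM against 265.9 and 266.8 at E18, and 295.6 and 310.8 against 288.7 and 310.2 at E21. At E28, where the class had 155 and 162 cells, RARA held 410.8 and 435.5 against 269.0 and 297.8. ALDH1A2 (-0.55, adjusted p = 0.0394) and RXRA (-0.37, adjusted p = 0.00163) were lower. In this class the synthesizing enzymes ALDH1A3 and ALDH1A2 thus differed from the other cells in opposite directions.

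The endothelial-like class (1571 cells) differed at 6 windows, 2 higher and 4 lower (39.1% of all windows). RARA had 421.8 ± 48.4 CPM there and 280.4 ± 19.8 in the other cells (0.48, adjusted p = 0.000225), and ALDH1A3 25.5 against 15.97 (0.54, adjusted p = 0.0244), both higher in 6 of 6 libraries. CRABP2 (28.2 against 69.8 CPM, -1.40, adjusted p = 5.92e-05) and CRABP1 (10.4 against 21.9, -1.19, adjusted p = 0.00383) were low, as were ALDH1A2 (-0.62, adjusted p = 0.00175) and CYP26B1 (-0.27, adjusted p = 0.0277). The blood-like class had 505 cells, with 34 and 37 at E21, and was not tested. RXRA held 342.0 ± 74.9 CPM in it and 166.6 ± 24.5 in the other cells and was higher in 6 of 6 libraries, whereas RARB held 43.4 against 163.1 CPM and was higher in none. Summed over all libraries, the RXRA region at 32887 to 34745 held 51.1 CPM in blood-like cells and 4.57 in the others, and it was higher in 6 of 6 libraries.

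**Figure D5:**
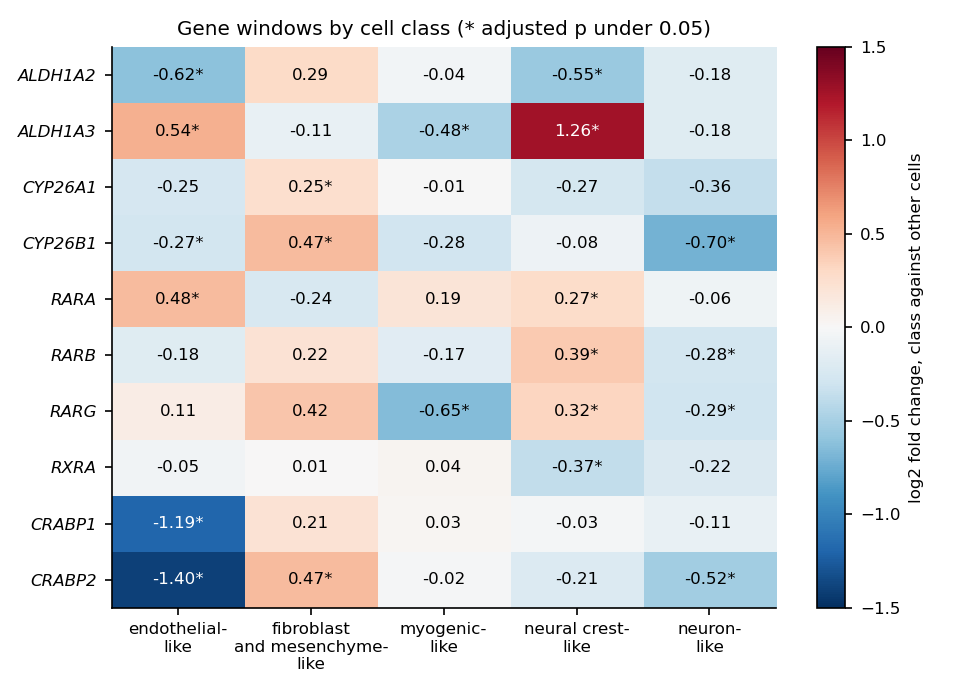
Log2 ratio of the CPM of each gene window between the cells of a class and all other cells, by gene and by class, with an asterisk for an adjusted p under 0.05. ALDH1A3 stands out in neural crest-like cells (1.26), and CRABP1 and CRABP2 in endothelial-like cells (-1.19 and -1.40).

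Of 25 other genes of the pathway (enzymes and carriers of retinol, further receptors, co-regulators and target genes), 13 windows passed between E28 and E18 on CPM, 2 higher and 11 lower (43.2% of all windows, as above). CDX1, a target gene of the caudal body axis, held 33.4 and 31.1 CPM at E18, 14.4 and 15.5 at E21, then 6.25 and 4.81 at E28 (log2 change -2.59, SE 0.157, adjusted p = 0.00267). CYP26C1, a further degrading enzyme (annotated as LOC100739552, matched by product name) and the neighbour of CYP26A1 on chromosome 14, held 74.6 and 73.9 CPM at E18, 32.2 and 27.4 at E21, then 24.5 and 19.1 at E28 (-1.82, SE 0.114, adjusted p = 0.00272). HOXB1 (-2.27, adjusted p = 0.00959), ALDH1A1 (-1.69, adjusted p = 0.0304) and TGM2 (-1.02, adjusted p = 0.00423) were lower too. RXRB (0.43, adjusted p = 0.0142) and NCOA3, a co-activator (0.30, adjusted p = 0.0414), were higher. Per covered base 12 of 24 passed, 5 higher and 7 lower (35.7% of all windows, 18.3% higher and 17.4% lower), and 7 were called in the same direction on both scales, among them CDX1 (-0.79), CYP26C1 (-0.92), HOXB1 (-1.46) and NCOA3 (0.41). The share of all windows called alike on both scales was not counted. ALDH1A1 (0.07), TGM2 (-0.33) and RXRB (-0.04) did not pass there. From E18 to E21 2 passed, CYP26C1 (-1.33) and CDX1 (-1.11), where 2.14% of all windows did. No gene passed between breeds (0.00442% of all windows did, and 1 of the 25 was at an unadjusted p under 0.05, edgeR).

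The windows whose level varied most like that of a member were found by Pearson's r over 30 sums, one for each library and class, out of 19173 windows. The sums share libraries, depth and called peaks, so r is given as a description. The closest to ALDH1A2 were RAB11FIP4 (0.821), FAM19A4 (0.804) and DSP (0.799), and to ALDH1A3 LOC106509839 (0.878), LOC110257167 (0.861) and CP (0.844). CYP26A1 was closest to MAPK13 (0.918) and the transfer RNA genes TRNAE-UUC and TRNAV-AAC (0.902 each). These transfer RNA windows had the same mean level (9.22 CPM), so they may hold the same counts. The closest to CYP26B1 were LOC110256597 (0.864), LUM (0.853), a gene of the mesenchyme list, and MERTK (0.838). For CRABP1 they were SLIT3 (0.912), TRABD2B (0.904) and TDH (0.899), and for CRABP2 LOC100513346 (0.875), FAM160A1 (0.868) and FAM19A2 (0.865). Among the receptors, RARA was closest to KDM7A (0.880), ZKSCAN1 (0.877) and CASP2 (0.875), and RARB to MAML2 (0.819), LOC106506610 (0.814) and C14H12orf49 (0.787). RARG was closest to SHROOM4 (0.860), ARHGEF15 (0.826) and UBA7 (0.808), and RXRA to ALPL (0.824), KCNS2 (0.798) and EVPL (0.795).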

How the data were processed

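Per the study's methods and the labels, the authors aligned single-cell ATAC-seq reads to Sscrofa11.1 with Cell Ranger ATAC, called peaks and cells separately in each library, and analysed them with Signac 0.2.2 and Seurat 3.1.1. In the deposited matrices each entry is the raw count of Tn5 cuts of 1 barcode in 1 peak, without normalization, and the deposited peak lists give starts and ends without scores. Genes came from the RefSeq annotation of the same assembly.

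Barcodes with 2000 to 30000 counts were kept (11243 and 10073 at E18, 9286 and 9347 at E21, 9410 and 9450 at E28, ZZ and DZ) and counts were summed per library. The study's filters on reads outside peaks were not used, and no doublet caller was run. Peaks sharing 1 bp or more were joined into regions. Windows took in every peak that touched the gene body or the 2 kb before it, and promoters those touching the 2 kb before the start. CPM is the count scaled to a library total of 1000000 kept counts.

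Libraries were compared with the edgeR 4.0.16 quasi-likelihood test (R 4.3.3, TMM, filterByExpr), with terms for stage and breed and 2 residual degrees of freedom. Regions were tested where all 6 libraries had a peak. P-values were adjusted by Benjamini-Hochberg over all features tested (threshold 0.05). The promoter ratio used limma 3.58.1. With 1 library per stage and breed the interaction could not be tested. The p-values rest on the departure from additive stage and breed terms. In it, stage changes that differ between breeds cannot be told apart from the spread between pools. Those of the classes rest on how alike a difference was over the libraries. Fits were tested on simulated data.

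Cells were clustered on 35867 regions of 10 chromosomes that carry none of the 10 genes, leaving out 100 kb around markers (50 latent components, scikit-learn 1.9.0; Leiden resolution 0.3, leidenalg 0.10.2), and named from marker lists. Classes with at least 50 cells in every library were tested, on the windows of the 8 chromosomes that carry the 10 genes.

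The genes, the lists and the naming rule were chosen with earlier results of these data known, and the fit per covered base, centred, was added after seeing the data. All 10 genes were named, with every region over a transcript start and, per gene, up to 3 other shared regions with the smallest adjusted p among those called in a stage comparison. Of the other pathway genes up to 5 higher and 5 lower were named, and per gene the 3 windows of the most like pattern. Alternatives were DESeq2 1.42.0, other barcode limits, no filter on low counts, the offset for called length, other promoter widths and cluster resolutions, the largest class alone and leaving out each library. A result of the other pathway genes between E21 and E28 is not reported here.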

Additional observations from a re-analysis of the deposited data

Results flagged for a closer look

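The log2 changes of the RARB and RARG windows between E18 and E28 had opposite signs in the 2 breeds. For RARB the log2 change of CPM was 0.17 in ZZ and -0.04 in DZ, a difference of 0.21. For RARG it was 0.37 in ZZ and -0.09 in DZ, a difference of 0.45. The changes in DZ were near 0, above all that of RARB. Each breed had 1 library per stage, so the difference was not tested. The share of all windows with opposite signs was not counted.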

How the results depend on the processing

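Each stage and breed was 1 pool of embryos in 1 library, so the stage and breed tests on all 6 libraries had 2 residual degrees of freedom. Those without 1 library had fewer, and the class tests had another design, with library as block. Tissue changed with stage, and sums in CPM followed the called length. Breed, with 1 library per stage, was a term of every stage comparison, and the labels give no replicate numbers for a further block. Of the named windows and regions between E28 and E18, 195 values under the other alternatives kept their direction and side of the threshold, 21 lost the call, 4 gained it and 14 reversed. When 1 library was left out, 146 such values were the same in this sense, 41 lost the call (19 without E18 DZ and 13 without E18 ZZ), 1 gained it and 4 reversed. The causes were not tested.

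Counts of calls moved by over 1.5 times as follows. The share of all features called moves between fits as well, so these counts and those without 1 library below describe the fits. DESeq2 called 33.8% of all windows for E21 against E18 and 34% for E28 against E21, where edgeR called 2.14% and 6.2%. For E21 against E18 it called 25.2% of all promoters, where edgeR called 0%. Among the regions between E21 and E18 (2 calls), DESeq2 gave 11, the offset for called length 9 and its centred form 7; between E28 and E21 (6 calls), DESeq2 gave 15 and the offset 13. Among the windows, E21 against E18 (0 calls) gave 4 with DESeq2 and 2 with the offset, E28 against E21 (0 calls) gave 6, 3 and, centred, 2, E28 against E18 (6 calls) gave 3 centred, and the breeds (0 calls) gave 1 with DESeq2. Among the promoters, DESeq2 gave 3 for E21 against E18 (0 calls), 4 for E28 against E21 (2 calls, 0 when centred) and 8 for E28 against E18 (4 calls). In mesenchyme-like cells (3 calls) DESeq2 gave 7 and a Leiden resolution of 0.6 gave 1.

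Leaving out 1 library at a time gave 0 to 16 region calls for E21 against E18 (0 without E18 DZ, E21 ZZ or E21 DZ, and 1 without E18 ZZ, but 15 without E28 ZZ and 16 without E28 DZ), 0 to 15 for E28 against E21 (0 without either E21 library, 15 without E28 ZZ) and 9 to 25 for E28 against E18 (9 without E18 DZ). Window calls ranged from 0 to 0, 0 to 3 (3 without E28 ZZ, 1 without E28 DZ) and 0 to 6 (0 without E18 DZ, 1 without E18 ZZ), promoter calls from 0 to 0, 0 to 4 (4 without E28 ZZ, 0 without E21 ZZ, 1 without E21 DZ or either E18 library) and 1 to 6 (1 without either E18 library), and ratio calls from 0 to 0, 0 to 1 (0 without either E21 library) and 0 to 2 (0 without E18 ZZ, 1 without E18 DZ or E28 ZZ), in the same order. Between breeds every such count was 0 for regions and ratios. Among the classes the calls ranged from 1 to 4 (mesenchyme-like, 1 without E21 ZZ, E21 DZ or E28 DZ), 1 to 2 (myogenic-like, 1 without E21 ZZ), 2 to 4 (neuron-like, 2 without E21 DZ), 4 to 6 (neural crest-like) and 4 to 6 (endothelial-like).

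Log2 changes from E18 to E28 reversed under the uncentred offset for the windows of ALDH1A2 (0.49), ALDH1A3 (0.24), RXRA (0.82, centred 0.28) and CRABP1 (0.29), and for the regions of RARA at 15376 (0.076), of RARB at -4002 (0.12) and 166477 (1.13, centred 0.71), of RXRA at 9484 (0.036) and 48947 (0.23), and of CRABP1 at -975 (0.13). Values near 0 changed sign for RARA (-0.071 in the largest class alone; -0.028 to 0.14 when 1 library was left out, negative without E28 DZ and, at -0.01, without E18 DZ), RARB (-0.075 centred, -0.11 to 0.13 when 1 library was left out, negative without E28 ZZ) and RARG (-0.15 to 0.30 when 1 library was left out, negative without E28 ZZ).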
